A study of Mus musculus with 5 samples.

Results

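Matricellular proteins are secreted into the extracellular matrix, where they regulate how cells attach, migrate and respond to growth factors rather than bear load themselves. The 10 genes described here encode periostin (Postn), SPARC (Sparc), tenascin-C (Tnc), the thrombospondins Thbs1, Thbs2 and Thbs4, and the CCN family members Ccn1, Ccn2, Ccn3 and Ccn5. They were taken by symbol from the expression tables, and all 10 were listed in all 5 tables, among 13711 genes that the tables shared. Their levels were compared across 5 Visium sections of transverse mouse heart. A Visium slide captures RNA on a grid of barcoded spots, each of which covers a small region with several cells. The labels give all mice as wild-type C57BL/6, and surgery was done on postnatal day 1. In the MI group the left anterior descending artery was ligated to cause a myocardial infarction, and the sham group had surgery without the ligation. Sections of 10 µm came from 200 µm below the suture, or the matching level of sham hearts, 3 or 7 days after surgery. There was 1 sham section and 1 MI section at day 3, and at day 7 there was 1 sham section and 2 MI sections. The study describes the MI day 7 sections as independent biological replicates, and each of the other groups is a single sample with no replicate.

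Most matricellular genes are transcribed at low levels in the uninjured heart muscle and are known to be induced in fibroblasts and other stromal cells after injury. Periostin and tenascin-C are known markers of activated fibroblasts, and SPARC binds collagen and assists its assembly. Thrombospondins bind matrix and integrins, and thrombospondin-1 can also bind CD36 and CD47 and activate latent TGF-beta. CCN1 and CCN2 bind integrins and are classical targets of the YAP/TEAD pathway, CCN3 is often described as opposing CCN2, and CCN5 lacks the C-terminal domain of its relatives.

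The tables held 3364 spots, of which 18 lay apart from the tissue and were left out, leaving 3346. These 18 spots were in the MI sections (10 at day 3, then 5 and 3 at day 7). The median count of unique molecular identifiers (UMIs, captured transcripts) per spot ran from 20842.5 to 53940, and MI day 7 replicate 1 was the deepest section. That section also had a mitochondrial share of 24.7%, against 13.8% to 15.8% in the other 4. The 6 cardiomyocyte markers summed to between 25566 and 29067 CPM (counts per 1000000 counts of a spot) in each section. The 7 macrophage markers summed to 968 CPM in the MI day 3 section and to between 113 and 277 CPM in the other 4. The 9 fibroblast markers summed to between 4098 and 4488 CPM in the sham sections and to between 5436 and 7173 CPM in the MI sections. Blood markers summed to 4411 and 6901 CPM in sham and to at least 8593 CPM in each MI section, and endothelial markers to 2157 and 2184 CPM in sham against 1874 to 1932 CPM in MI. The sums of the macrophage, fibroblast, blood and endothelial lists thus separated MI from sham, while that of the cardiomyocyte list overlapped. Within the fibroblast list Pdgfra, Col1a1, Col1a2 and Col3a1 separated the groups, and Tcf21, Dcn, Lum, Dpt and Gsn overlapped. Within the endothelial list Cdh5, Kdr and Fabp4 were lower in every MI section, and Pecam1, Flt1 and Egfl7 overlapped. The part of these lists in the section-wide differences below was not tested. In whole spots, fewer cells of a type and less RNA per cell cannot be told apart.

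Across whole sections, Thbs4, Thbs2, Sparc and Ccn5 were higher in all 3 MI sections than in both sham sections, and Ccn3 was lower. That is 5 of the 10 genes, where 16.3% of 12950 genes had all MI sections on one side of both sham sections. Levels are means over spots of CPM within each section. No gene of the set passed a test between MI and sham at this number of sections, so these are separations without a call.

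Thbs4, on chr13:92751590-92794818 (minus strand, GRCm38, GENCODE vM21), encodes thrombospondin-4, a pentameric member known from tendon and stressed heart. Day 3 levels were 8.41 CPM in sham and 27.3 CPM in MI. Day 7 levels were 6.61 CPM in sham, with 11.6 and 27.3 CPM in MI (mean 19.4 ± 11.1, SD, n = 2). Every MI section was above every sham section, although the MI day 7 sections differed from each other more than replicate 1 differed from the sham sections. Thbs2 (chr17:14665500-14694235, minus strand), which encodes a thrombospondin that restrains angiogenesis, had sham levels of 62.6 CPM at day 3 and 62.7 CPM at day 7. Its MI levels were 115 CPM at day 3, then 63.1 and 85.4 CPM at day 7, so MI day 7 replicate 1 was barely above sham. Thbs1 (chr2:118111876-118127133, plus strand) overlapped between the groups, with 22.1 and 21.2 CPM in the sham sections, 29.1 CPM in the MI day 3 section, and 11.1 and 16.0 CPM in the MI day 7 sections.

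Sparc (chr11:55394500-55423183, minus strand) was read from nearly every spot. At day 3 the sham section had 1124 CPM and the MI section 1702 CPM. At day 7 the sham section had 1335 CPM, and the MI sections had 1405 and 1629 CPM (mean 1517 ± 159, SD, n = 2). All MI sections were above both sham sections, but MI day 7 replicate 1 exceeded the sham day 7 section by less than the MI day 7 sections differed from each other. Postn (chr3:54361109-54391037, plus strand) overlapped, with 767 and 641 CPM in the sham sections, 871 CPM in the MI day 3 section, and 592 and 841 CPM in the MI day 7 sections. Tnc (chr4:63959785-64047015, minus strand) had 22.7 CPM in sham at day 3 and 75.3 CPM in MI. At day 7 the sham section had 19.4 CPM, between the 15.2 and 39.3 CPM of the MI sections.

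Among the CCN genes, Ccn3 (chr15:54745702-54754039, plus strand) had the lowest ratio of MI to sham among the 10 genes at day 3. At day 7 this held for the mean of the MI sections but not for replicate 1, where Thbs1, Ccn2 and Ccn1 had lower ratios. Its day 3 level was 74.9 CPM in sham and 10.2 CPM in MI. By day 7 sham had 73.0 CPM, with 44.7 and 38.4 CPM in MI (mean 41.6 ± 4.41, SD, n = 2). The groups did not overlap, and the MI day 3 section was far below the MI day 7 sections. Ccn2 (chr10:24595442-24598683, plus strand), long known as connective tissue growth factor, had 74.3 CPM in sham at day 3, and 152 CPM in MI. Its day 7 levels of 35.2 and 66.9 CPM in the MI sections lay on either side of the 63.1 CPM of the sham section. Ccn1 (chr3:145646976-145649981, minus strand) had sham levels of 29.0 and 27.5 CPM, with 32.1 CPM in the MI day 3 section, and 16.1 and 24.9 CPM in the MI day 7 sections, so the groups overlapped.

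Ccn5 (chr2:163820861-163833146, plus strand) was near 0 in the sham hearts. The sham day 3 table, the only one of raw UMIs, held 1 Ccn5 UMI among 11396022, which is 0.0877 CPM with an exact Poisson 95% upper limit of 0.489 CPM for counting error only. In the sham day 7 section its level was 0.406 CPM. It was at 3.61 CPM in the MI day 3 section and at 1.41 and 6.54 CPM in the MI day 7 sections, with values above 0 in 10.1%, 4.65% and 6.35% of their spots. All 3 MI levels were above the upper limit of the sham day 3 section. That limit is on pooled raw UMIs, while the MI levels are means over spots of values corrected by sctransform. It does not cover the spread between sections. Depth differed between sections, so the shares of spots are not compared. Ccn5 reached the minimum of 1 CPM in 2 sections through the MI sections alone, so its place in the counts of MI against sham follows in part from that filter.

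**Figure D1:**
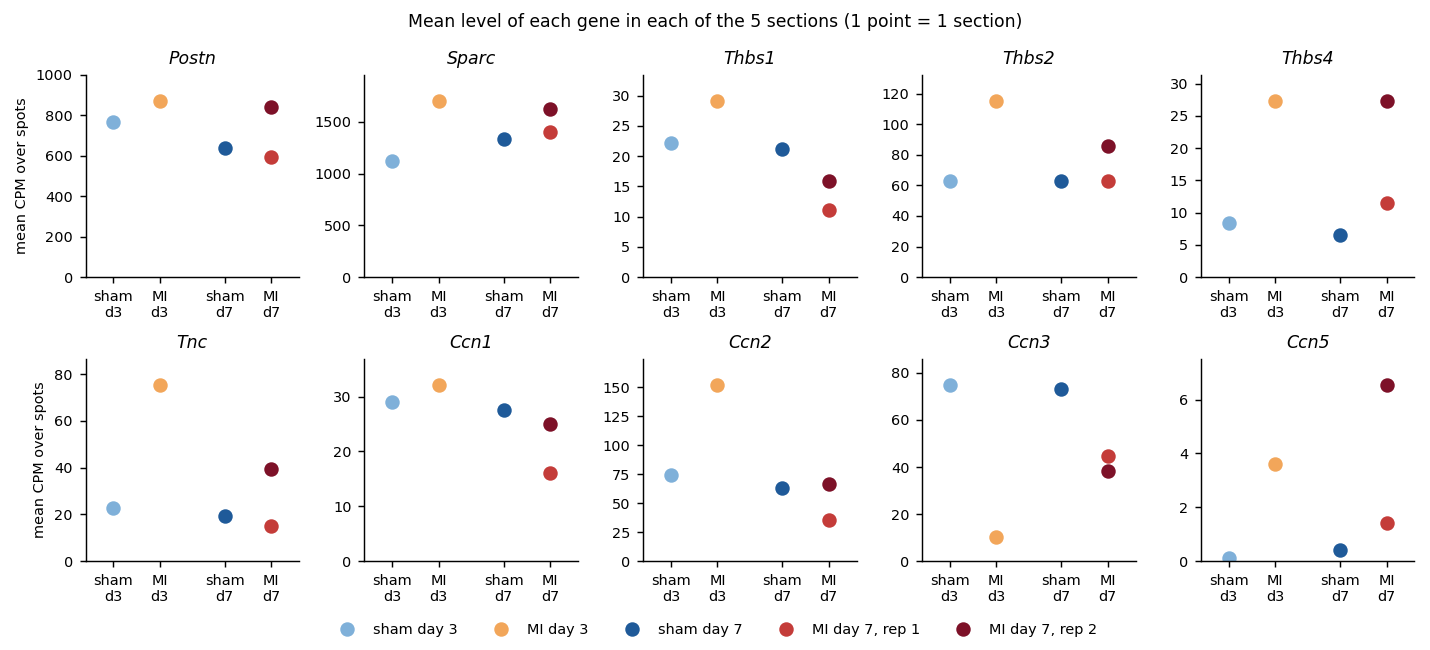
Mean CPM of each of the 10 genes in the 5 sections, 1 panel per gene, with 1 point per section on a CPM axis. Thbs4, Thbs2, Sparc and Ccn5 lie higher in the 3 MI sections than in the 2 sham sections, Ccn3 lies lower, and the other 5 genes overlap.

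The test of MI against sham across days used the 5 section means with day as a covariate, and it called 0.00772% of 12950 genes at an adjusted p under 0.05. With limma it called 0 of the 10 genes, while 4 had an unadjusted p under 0.05, where 8.22% of all genes did. Ccn5 differed by 1.80 ± 0.46 (log2, SE; adjusted p = 0.414), Ccn3 by -1.64 ± 0.39 (adjusted p = 0.393), Thbs4 by 1.43 ± 0.32 (adjusted p = 0.380) and Thbs2 by 0.50 ± 0.19 (adjusted p = 0.576). The median over the 10 genes was 0.29. Without MI day 7 replicate 1 the fit called Ccn5, Tnc and Thbs4 (1.51% of all genes), and without the sham day 7 section it called Ccn3 (2.23% of all genes), so the count rests on single sections. The latter call compares 1 MI with 1 sham section and assumes that both vary like the MI day 7 pair. At day 7 alone, where 0.0695% of 12950 genes were called, 0 of the 10 passed with limma and 4 had an unadjusted p under 0.05 (Thbs4, Ccn3, Ccn5 and Thbs1), where 3.78% of all genes did.

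At day 3, with 1 section per group, the ratios are given as a description. The sham day 3 table holds raw UMIs and the MI day 3 table values corrected by sctransform. Condition and type of value thus cannot be told apart in these ratios. The same sham section enters the fits across days, between days, within classes and of the MI against sham gradient. Without the sham day 7 section the fit across days reduces to these 2 sections, with the spread taken from the MI day 7 pair, and there it called Ccn3 of the 10 genes. An absolute log2 ratio of at least 1 was reached by 5 of the 10 genes, against 4.11% of 12950 genes. Ccn5 (2.06), Tnc (1.69), Thbs4 (1.59) and Ccn2 (1.02) were higher in the MI section, and Ccn3 (-2.76) was lower. Ccn2 falls to 0.97 when mitochondrial and haemoglobin genes are left out of the scaling. Ccn5 rests on 1 sham UMI, and its ratio depends on the pseudocount, reaching 4.16 with 0.1 in place of 1. The macrophage markers were at 968 CPM in this MI section and at 113 CPM in its sham section, and the part of these cells in the differences was not tested.

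Between days, with MI or sham as a covariate, 0.595% of 12950 genes were called and 0 of the 10 passed with limma, while 3 had an unadjusted p under 0.05. That is close to the 25.3% of all genes that did, so the count is not a result about the set. These were Ccn2 (-1.03 ± 0.36, log2, SE; adjusted p = 0.157), Thbs1 (-0.64 ± 0.26; adjusted p = 0.186) and Ccn3 (1.08 ± 0.39; adjusted p = 0.160). All genes together had a median of -0.18, and this shift goes to 0.00 with median-of-ratios scaling, which sets the typical gene equal between sections and under which 144 genes were called higher and 63 lower at day 7 in place of 32 and 45. The result rests on single sections. Leaving out either sham section gave 4 calls (Ccn3 higher at day 7, and Thbs1, Tnc and Ccn2 lower), where the calls over all genes rose to 4.41% and 4.55%. Both amount to the same comparison, the MI day 7 pair against the lone MI day 3 section, which is taken to vary like that pair. Without the MI day 3 section 0 of the 10 were called by limma, 0 had an unadjusted p under 0.05, and the Ccn3 difference went to -0.0355.

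The metadata gave each spot 11 scores from 0 to 1, estimates of its make-up by cell type that the study transferred from a single-nucleus reference. A spot is called dominant for the type with its highest score. FB is the fibroblast score, CM1 that of the main cardiomyocyte state, and CM4 that of a cardiomyocyte state which the study associates with regeneration. The scores came from the same expression values, so levels between classes are a description with no test. Of the 10 genes, 9 had a higher level in FB-dominant than in CM1-dominant spots of all 5 sections, and Ccn5 did so in 4, with no UMI in the FB-dominant spots of the sham day 3 section. Postn had 1269 CPM in FB-dominant and 458 CPM in CM1-dominant spots of the sham day 3 section, and 2199 and 476 CPM in those of the MI day 3 section. At day 7 its FB-dominant spots had 1069 CPM in the sham section and 1467 and 2458 CPM in the MI sections. Endocardium-dominant spots held the highest Postn level in the sham day 3 section (1402 CPM) and the next highest in the other 4. Ccn2 differed, since its highest level in the MI day 3 section was in CM4-dominant spots (399 CPM), above the 256 CPM of FB-dominant spots.

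Macrophage-dominant spots were another site of high Thbs1 and Thbs2 in some MI sections. In the MI day 3 section those spots had 98.2 CPM of Thbs1 and 273 CPM of Thbs2, against 89.0 and 200 CPM in FB-dominant spots. In MI day 7 replicate 2 they had 192 CPM of Thbs1 and 258 CPM of Thbs2, but in MI day 7 replicate 1 only 11.5 and 46.7 CPM. There were 20 macrophage-dominant spots in the MI day 3 section, 21 in replicate 1 and 13 in replicate 2, so these levels rest on few spots. Sparc, Tnc, Ccn3 and Ccn5 were also higher there than in FB-dominant spots in replicate 2. In sham, macrophage-dominant spots had less Thbs1 than FB-dominant spots, with 15.5 against 34.3 CPM at day 3 and 16.0 against 29.2 CPM at day 7.

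Comparing MI with sham within a class of spots asks whether the levels differ where the estimated make-up is alike. In FB-dominant spots Thbs4 and Ccn5 were called higher in MI, 2 of the 10 genes, where 0.596% of 13266 genes were called. Ccn5 passed the filter of 1 CPM through the MI sections alone, so its call is given as a description and does not support the count. Thbs4 was at 16.4 and 12.3 CPM in the FB-dominant spots of the sham sections of days 3 and 7. In the MI sections it was at 55.1 CPM at day 3 and at 36.2 and 94.4 CPM at day 7, so the groups were well apart. The fitted difference was 1.96 ± 0.33 (log2, SE; adjusted p = 0.0295), a 3.90-fold change on the scale of CPM plus 1.

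Ccn5 was at 0 CPM in the FB-dominant spots of the sham day 3 section, where 3 UMIs would have been 1.28 CPM, and at 0.991 CPM in those of the sham day 7 section. It was at 11.9 CPM in the MI day 3 section and at 6.72 and 39.1 CPM in the MI day 7 sections, all above both sham values. The fitted difference was 3.38 ± 0.59 (log2, SE; adjusted p = 0.0344), and its size depends on the pseudocount. It was also called with no filter, but the sham values are too low for the size to be read. Ccn3 was lower in the FB-dominant spots of every MI section, with 21.5 CPM at day 3 and 74.3 and 63.4 CPM at day 7, against 139 and 111 CPM in the sham sections. Its difference of -1.52 ± 0.33 (log2, SE) did not pass (adjusted p = 0.0742), although Ccn3 was called lower when spots were summed or when mitochondrial and haemoglobin genes were left out.

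Tnc differed widely among the MI sections in FB-dominant spots. It was at 296 CPM in the MI day 3 section and at 143 CPM in MI day 7 replicate 2, but at 39.7 CPM in replicate 1, close to the 38.4 and 34.3 CPM of the sham sections. Its difference of 1.89 ± 0.47 (log2, SE; adjusted p = 0.108) did not pass. Postn (0.81 ± 0.25), Sparc (0.81 ± 0.26) and Thbs2 (0.89 ± 0.22) had like differences that did not pass either. The median over the 10 genes was 0.81, beside 0.03 over all genes tested.

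The FB-dominant spots were not equal between groups. There were 122 and 266 in the sham sections but 22 in the MI day 3 section and 94 in each MI day 7 section. The share of them that bordered a CM4-dominant spot was 28.7% and 28.6% in sham, against 68.2%, 50% and 46.8% in MI. Their fibroblast markers summed to 6375 and 7234 CPM in the sham sections, and to 10948, 11687 and 18160 CPM in the MI sections. Their macrophage markers summed to 135 and 153 CPM in sham and to 1763, 269 and 558 CPM in MI. Mural and arterial wall markers summed to 1079 and 1549 CPM in sham and to 1986, 2600 and 3531 CPM in MI, and the mean CM4 score was 3.70% and 2.82% in sham against 12.4%, 13.7% and 10.3% in MI. Cardiomyocyte markers summed to 25990 and 26660 CPM in sham and to 19006, 25068 and 23440 CPM in MI. Endothelial markers were also lower in every MI section and epicardial markers higher. Endocardial, blood, and valve and tendon markers overlapped. The part of these in the result was not tested. Without MI day 7 replicate 2, 0 of the 10 genes were called by limma (5 with an unadjusted p under 0.05, where 8.7% of all genes did) and 0 of all genes were. Without replicate 1, 9 of the 10 were called, where 4.84% of all genes were. Ccn5 also lost its call without either day 3 section (both leave the day 7 comparison with its lone sham section), while Thbs4, among the sections left out in turn, lost it only without MI day 7 replicate 2 (1.59, log2).

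In CM1-dominant spots, with 201 to 488 spots per section, the same fit called 0.204% of 12757 genes. Ccn5 was too low to be tested there, and 0 of the other 9 passed with limma, although 5 had an unadjusted p under 0.05, where 7.6% of all genes did. Ccn3 had 42.4 and 46.5 CPM in the CM1-dominant spots of the sham sections, and 7.06 CPM at day 3 and 31.9 and 31.3 CPM at day 7 in those of the MI sections. Its difference was -1.35 ± 0.29 (log2, SE; adjusted p = 0.0681), and it was called when spots were summed rather than averaged. Thbs1 was lower in all 3 MI sections, with a difference of -0.81 ± 0.19 (adjusted p = 0.0934). The MI levels of Ccn3 were below those of sham in both spot classes and in every section. The make-up of CM1-dominant spots differed too, with a mean CM1 score of 59.2% and 56.2% in sham against 76.9%, 74.9% and 65.8% in MI. Their macrophage markers summed to 66.9 and 80.6 CPM in sham and to 286, 138 and 102 CPM in MI. Fibroblast markers summed to 2705 and 2989 CPM in sham and to 3391, 3666 and 4181 CPM in MI. Blood and epicardial markers were also higher in every MI section and endothelial markers lower. Cardiomyocyte, endocardial, mural and arterial wall, and valve and tendon markers overlapped. The part of these in the result was not tested.

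**Figure D2:**
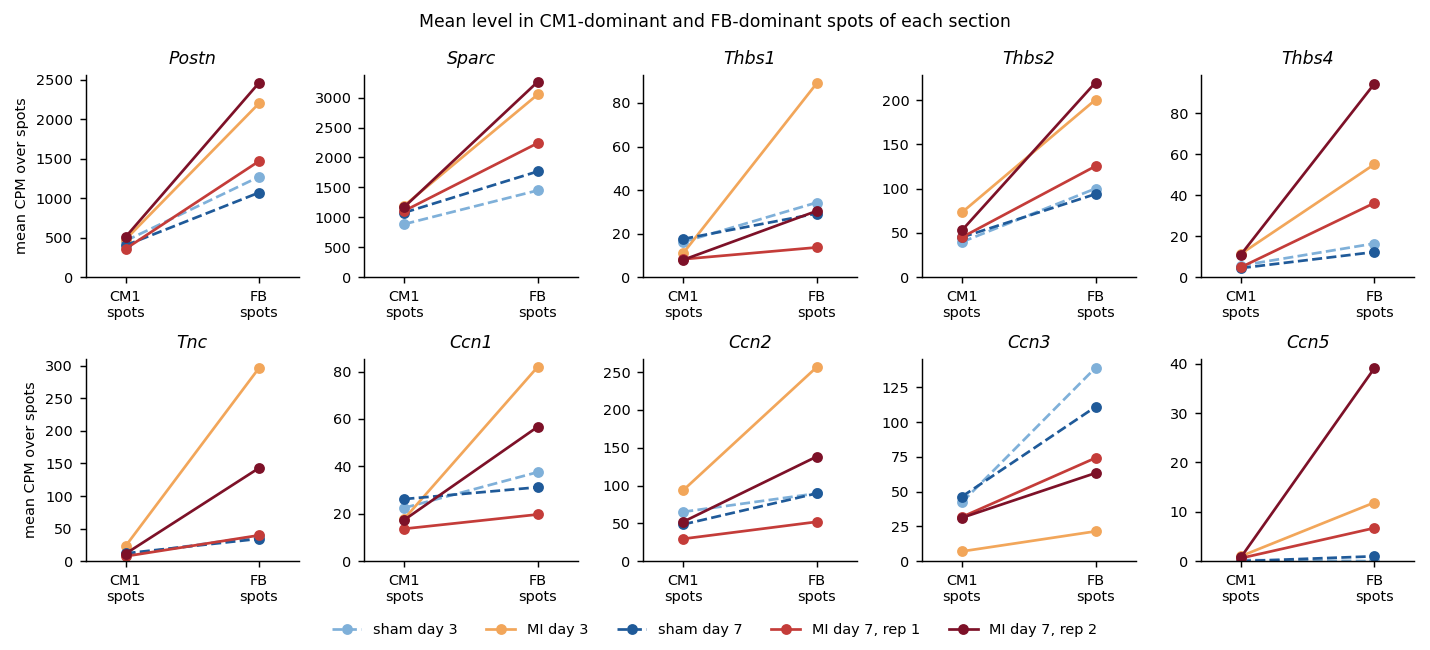
Mean CPM of the 10 genes in CM1-dominant and FB-dominant spots, with 1 line per section (dashed for sham) and CPM on the vertical axis. FB-dominant spots of the MI sections reach 36.2 to 94.4 CPM of Thbs4 against 12.3 and 16.4 CPM in the sham sections, and Ccn3 is lowest in the MI day 3 section in both classes.

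The next comparison took position into account. There were 40 CM4-dominant spots in MI at day 3, and 76 and 86 in replicates 1 and 2 of MI at day 7. Bordering spots are those next to a CM4-dominant spot on the grid (1 spot spacing away) that are not CM4-dominant themselves, and remote spots lie more than 3 spacings away. In the MI sections 9 of the 10 genes were higher in bordering than in remote spots, where 7.58% of 13116 genes were called. The exception was Ccn3, which differed by 0.05 ± 0.14 (log2, SE; adjusted p = 0.832).

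Thbs4 had the largest fitted difference of the 10. In the MI day 3 section it stood at 52.0 CPM in bordering and 10.1 CPM in remote spots. In MI day 7 replicate 1 it was at 23.6 and 3.59 CPM, and in replicate 2 at 58.9 and 8.23 CPM. The difference was 2.46 ± 0.14 (log2, SE; adjusted p = 6.18e-05), a 5.49-fold change. Its level in the CM4-dominant spots themselves was 51.4, 19.6 and 55.1 CPM, near that of their neighbours, and its level was lower with each ring further out in all 3 MI sections.

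**Figure D3:**
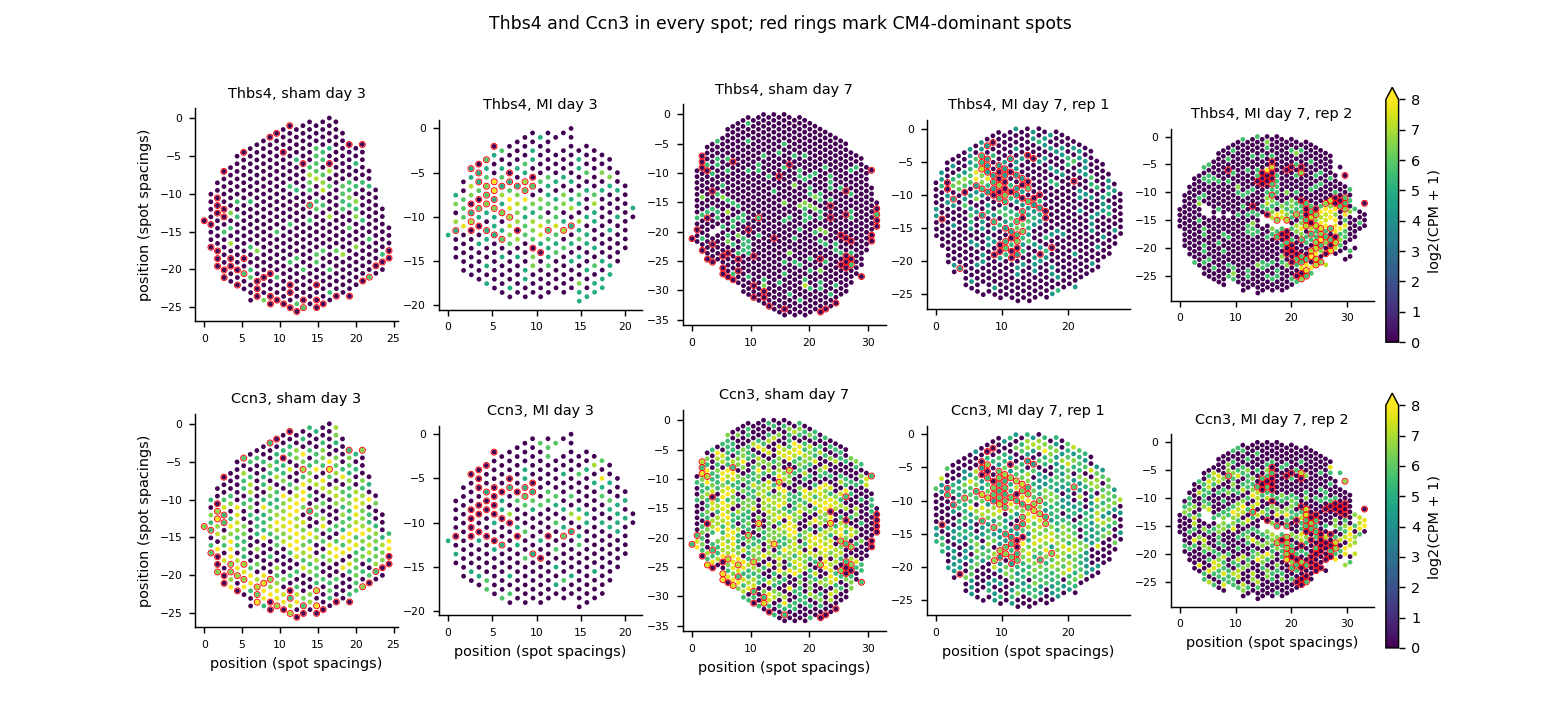
Level of Thbs4 (upper row) and Ccn3 (lower row) in every spot of the 5 sections, as log2(CPM + 1) by colour, with both axes in spot spacings and red rings around CM4-dominant spots. In the MI sections high Thbs4 spots gather around CM4-dominant spots, with 5.12, 6.58 and 7.16 times as much in bordering as in remote spots, and many CM4-dominant spots of the sham sections lie along the margin.

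Tnc was among the others with large differences, with 141 CPM in bordering and 24.2 CPM in remote spots of the MI day 3 section. It was at 20.5 and 9.96 CPM in MI day 7 replicate 1, and at 60.8 and 18.7 CPM in replicate 2, a difference of 1.70 ± 0.23 (log2, SE; adjusted p = 0.00319). Postn was at 1298 against 532 CPM in the MI day 3 section, at 816 against 398 CPM in replicate 1, and at 1204 against 645 CPM in replicate 2 (1.07 ± 0.10; adjusted p = 0.000679). In the CM4-dominant spots themselves Postn was at 631 and 908 CPM at day 7, lower than next to them, and at 1344 CPM at day 3, where it was not lower.

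Of the thrombospondins, Thbs2 was at 167 against 90.9 CPM in the MI day 3 section, at 83.6 against 45.3 CPM in replicate 1, and at 114 against 63.4 CPM in replicate 2 (0.86 ± 0.08, log2, SE; adjusted p = 0.000616). Thbs1 ran from 56.7 to 11.5 CPM at day 3, a ratio of 4.95, but its ratio was only 1.65 and 1.71 at day 7 (a fitted 2.29-fold change; adjusted p = 0.0308). Sparc had the smallest fitted difference of the 9, with ratios of 1.75, 1.42 and 1.36 (0.59 ± 0.12; adjusted p = 0.0203).

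Ccn2 was at 203 against 85.4 CPM in the MI day 3 section, at 42.4 against 27.0 CPM in replicate 1, and at 90.9 against 49.1 CPM in replicate 2 (0.92 ± 0.11, log2, SE; adjusted p = 0.00229). At day 3 it was higher still in the CM4-dominant spots, at 399 CPM. Ccn1 was likewise at 61.5, 22.4 and 34.7 CPM in CM4-dominant spots of the 3 sections and at 43.4, 17.2 and 31.2 CPM in bordering spots, against 20.9, 14.1 and 16.6 CPM in remote spots (bordering against remote 0.72 ± 0.15; adjusted p = 0.0276). Ccn5 was at 8.37 against 1.32 CPM, 1.98 against 0.558 CPM and 16.2 against 1.34 CPM (1.94 ± 0.35; adjusted p = 0.0135). Ccn3 was at 9.95 against 11.2 CPM, 50.5 against 36.5 CPM and 32.7 against 36.6 CPM, so that its sections pointed in different directions.

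**Figure D4:**
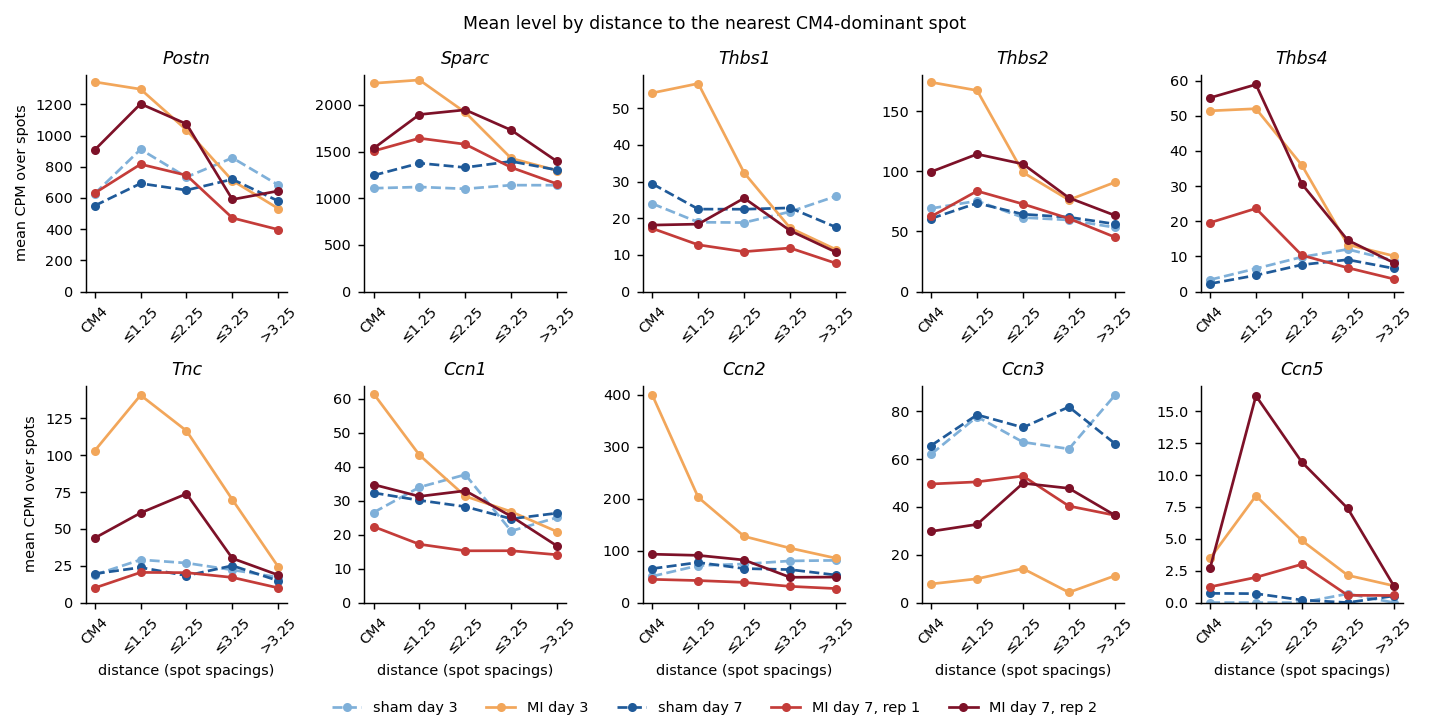
Mean CPM of the 10 genes in CM4-dominant spots and in rings of spots at increasing distance from them (spot spacings, the limits on the axis including a tolerance), with 1 line per section, dashed for sham. Thbs4 goes from 52.0, 23.6 and 58.9 CPM in bordering spots of the MI sections to 10.1, 3.59 and 8.23 CPM in remote spots, and runs from 6.53 and 4.63 CPM to 8.81 and 6.60 CPM in the sham sections.

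Over all genes the median difference was 0.21, and it was 0.00 with median-of-ratios scaling. Calls split into 970 higher and 24 lower genes with CPM and into 155 and 64 with that scaling. On the latter scale, which removes the common shift, 6 of the 10 genes stayed called, where 1.67% of all genes were called (Thbs4, Ccn5 at 1.79, Tnc at 1.48, Postn at 0.84, Ccn2 at 0.69 and Thbs2 at 0.63, log2). Thbs1, Ccn1 and Sparc lost their calls, and Ccn3 went to -0.17. Without MI day 7 replicate 2, 5 of the 10 were called (Postn, Tnc, Ccn2, Thbs4 and Thbs2), where 1.44% of all genes were.

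The make-up of bordering and remote spots also differed. The rings were set by scores from the same expression values, so they are not independent of the levels compared. The CM4 score, which set them, averaged 14.4%, 11.7% and 15.8% in bordering spots of the 3 MI sections and 1.35%, 2.57% and 2.09% in remote spots. The CM1 score averaged 22.5%, 29.3% and 36.2% in bordering and 69.7%, 62.8% and 54.9% in remote spots. The FB score averaged 17.6%, 22.4% and 22.7% in bordering spots of the 3 MI sections and 0.911%, 4.30% and 6.29% in remote spots, and the fibroblast markers were 2.20, 1.74 and 1.75 times as high. Mural and arterial wall markers were 1.91, 1.70 and 2.11 times as high, valve and tendon markers (3 of 6 listed genes in the tables) 1.78, 2.11 and 2.34 times, and endocardial markers 1.94, 1.75 and 1.37 times. Macrophage markers were at 2139 against 242 CPM in the MI day 3 section, at 191 against 178 CPM in replicate 1 and at 261 against 187 CPM in replicate 2. The mitochondrial share was 9.20%, 21.98% and 13.0% in bordering and 17.5%, 28.1% and 17.9% in remote spots. Of the remote spots, 35.9%, 28.2% and 27.9% lay at an edge, against 8%, 5.81% and 12.5% of the bordering spots. The part of these in the gradients was not tested.

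Sham sections have CM4-dominant spots too, 57 at day 3 and 58 at day 7, of which 56.1% and 43.1% lay at an edge, against 12.5%, 1.32% and 15.1% in the MI sections. They allow a test of whether the difference between bordering and remote spots is larger after MI. Of the 10 genes, 2 were called, Thbs4 and Postn, where 0.683% of 13314 genes were called. Thbs4 was lower in bordering than in remote spots of the sham sections, at 6.53 against 8.81 CPM at day 3 and at 4.63 against 6.60 CPM at day 7. The MI gradient exceeded the sham gradient by 2.86 ± 0.26 (log2, SE; adjusted p = 0.000269), and Thbs4 was called under every alternative and without each section in turn. Postn was at 912 against 683 CPM in the sham day 3 section and at 693 against 581 CPM in the sham day 7 section, a gradient in the same direction as in MI. Its excess in MI was 0.74 ± 0.13 (adjusted p = 0.0352). Marker lists also differed in gradient. Valve and tendon markers were 0.79 times as high in bordering as in remote spots of both sham sections, below 1 as for Thbs4, and fibroblast markers 1.246 and 1.24 times, against the MI ratios above. Mural and arterial wall markers were 1.33 and 1.44 times as high in bordering spots of sham, and endocardial markers 1.26 and 0.95 times. Macrophage markers were 1.41 and 1.27 times as high there, against 8.83, 1.07 and 1.40 times in MI. Blood markers were 1.33 and 1.37 times as high in bordering spots of sham, against 0.50, 0.83 and 0.85 times in MI. Edge spots made up 24% and 14.9% of bordering and 7.47% and 8.96% of remote spots in sham, the opposite order to MI. The mitochondrial share was higher in bordering than in remote spots of sham, 1.47 and 1.14 times, and lower in MI, 0.53, 0.78 and 0.72 times. The part of these in the excess was not tested.

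The Postn call did not hold with median-of-ratios scaling (0.49), without mitochondrial and haemoglobin genes (0.53), or without the sham day 3 section (0.82), the sham day 7 section (0.66) or MI day 7 replicate 2 (0.82). Of the others, Thbs1 (1.248 ± 0.40, log2, SE), Tnc (1.01 ± 0.32), Ccn2 (0.74 ± 0.21) and Sparc (0.56 ± 0.14) had differences in the same direction with adjusted p from 0.107 to 0.168. Ccn5 was at 0 CPM in bordering and remote spots of the sham day 3 section, and at 0.701 and 0.521 CPM in those of the sham day 7 section. It passed the filter of 1 CPM through the MI sections alone, so its difference of 1.86 ± 0.55 is a description only. Ccn3 differed by 0.01 ± 0.20. The median over the 10 genes was 0.74, beside 0.22 over all genes, a shift that goes to 0.00 with median-of-ratios scaling. Calls over all genes split into 81 higher and 10 lower with CPM, and into 21 and 12 with that scaling.

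**Figure D5:**
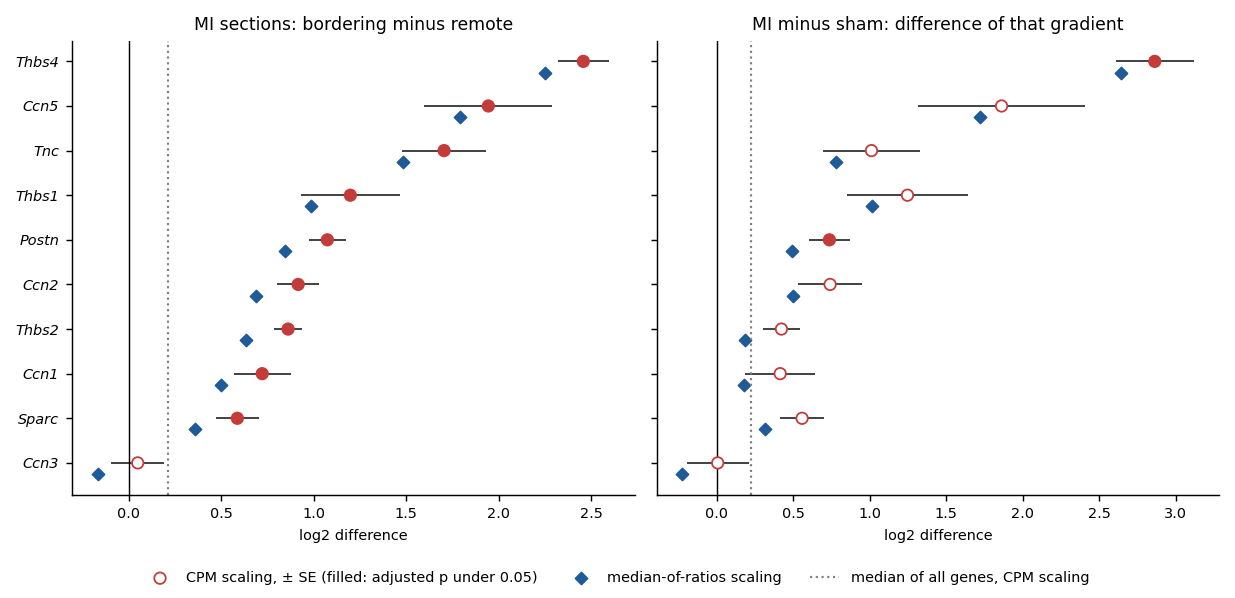
Fitted log2 differences of the 10 genes with standard errors, for bordering against remote spots in MI and for the excess of the MI gradient over the sham gradient, on a log2 axis with a line at 0. Filled red circles passed the test, open ones did not, blue diamonds are values with median-of-ratios scaling and the dotted line is the median of all genes. Thbs4 lies at 2.46 and 2.86, Ccn3 at 0.05 and 0.01, and the others lie between them.

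Promoters are shown for Thbs4, the gene with the largest fitted gradient, and for Ccn1, since these were the members whose window held the TEAD motif. The 250 bases before the RefSeq transcription start (GRCm38.p6) were searched on both strands for CATTCC, the core of the motif bound by TEAD, the partner of YAP. Of the 10 genes, 6 have an entry in the promoter table used. The windows lie at chr13:92794819-92795068 and chr3:145649986-145650235, both on the minus strand, and are written 5′ to 3′ along the gene with the motif in capitals.
Thbs4: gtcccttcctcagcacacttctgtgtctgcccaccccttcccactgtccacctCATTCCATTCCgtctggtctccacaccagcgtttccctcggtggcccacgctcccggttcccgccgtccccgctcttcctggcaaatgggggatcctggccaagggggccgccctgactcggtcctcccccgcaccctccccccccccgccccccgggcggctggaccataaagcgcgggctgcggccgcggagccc
Ccn1: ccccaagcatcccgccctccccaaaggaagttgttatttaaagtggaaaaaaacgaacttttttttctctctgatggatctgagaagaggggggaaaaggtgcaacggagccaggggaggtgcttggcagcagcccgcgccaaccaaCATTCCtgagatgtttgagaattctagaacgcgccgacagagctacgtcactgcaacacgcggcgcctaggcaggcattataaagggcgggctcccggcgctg
The Thbs4 window holds 2 overlapping copies of the motif, which begin 197 and 192 bases before the start, and the Ccn1 window holds 1, which begins 103 bases before it. It is common, since CATTCC or its reverse complement GGAATG is in 12.6% of 32851 promoter windows of this length, and the AP-1 motif TGANTCA (6.75% of windows) and the CArG box (1.47%) were in 0 of the 6 genes. A match is no evidence of binding.

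How the 10 genes are arranged over the tissue was described by Moran's I, which is near 0 for a random arrangement and rises when neighbouring spots are alike. Postn reached 0.346 and 0.382 in sham, and 0.632 (day 3), 0.614 and 0.488 (day 7) in MI, above at least 99.6% of 12950 genes in each. Sparc was at 0.198 and 0.343 in sham and at 0.653, 0.535 and 0.578 in MI. Its percentile among all genes was 99.5 and 99.8 in sham and 99.7, 99.9 and 99.8 in MI. Thbs4 was at 0.192 and 0.0510 in sham and at 0.323, 0.285 and 0.326 in MI, with values above 0 in 13.8% and 13.0% of sham spots and in 45.1%, 32.0% and 29.4% of MI spots. The part of detection in these values was not tested. Ccn1 was the least clustered in MI day 7 replicates 1 and 2, at 0.0153 and 0.0549.

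Across spots, Postn and Sparc were most like each other among the 45 pairs of the set, with a mean Spearman's rho of 0.64 over the 5 sections, and Ccn1 and Ccn3 were least alike (0.03). Outside the set, the genes most like Postn were Col3a1 (0.71), Col1a2 (0.67) and Col1a1 (0.64), and the same 3 fibrillar collagens led for Sparc (0.67, 0.64 and 0.62). They also led for Thbs2, with Col3a1 at 0.47, Col1a1 at 0.45 and Col1a2 at 0.43. Tnc was most like Bgn, Eln and Col1a2 (0.38 each), which encode biglycan, elastin and a collagen chain. Ccn3 had other neighbours, Mfap5 (0.35), Dcn (0.32) and Fbn1 (0.31), genes of microfibrils and a small proteoglycan. For Thbs1, Thbs4, Ccn1, Ccn2 and Ccn5 no gene reached a mean of 0.3. These correlations are across spots of a section, which share a library and depth, and are given without a test.

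The FB score had a mean rho of 0.71 with Postn and 0.63 with Sparc, and of 0.28 with Thbs4, 0.24 with Ccn2 and 0.17 with Ccn5. For Ccn2 the value was 0.52 in the MI day 3 section and between 0.11 and 0.25 in the other 4. For Ccn3 it was 0.43 and 0.35 in sham, with 0.17, 0.32 and 0.19 in MI.

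Genes related to the set were taken from lists of relatives, receptors and signalling partners. The counts below are to be read beside the 7.58% of all genes called between bordering and remote spots with CPM scaling. In the fibrillar matrix list 7 of 7 genes were higher in bordering than in remote MI spots, led by Lox (1.31 ± 0.13, log2, SE), a collagen cross-linking enzyme, and Col1a2 (1.17 ± 0.13). Of 9 relatives tested, 5 were higher, namely Smoc1 (1.22), Thbs3 (1.01), Ccn4 (0.80), Tnxb (0.78) and Smoc2 (0.55). Of 13 receptors, 3 were higher, the integrin chains Itgav (0.98) and Itgb5 (0.79) and the endocytic receptor Lrp1 (0.74). The median log2 difference was 0.96 over the fibrillar matrix list, 0.80 over the relatives and 0.30 over the receptors, beside 0.21 over all genes.

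In the TGF-beta pathway list 5 of 15 genes were higher in bordering spots. These were the latent TGF-beta binding proteins Ltbp2 (2.43 ± 0.19, log2, SE) and Ltbp3 (0.99), the ligand Tgfb3 (1.29), the receptor Tgfbr1 (0.64) and the repressor Skil (0.58), and the list had a median of 0.49. Of 13 genes in the YAP/TEAD list 3 were higher, Axl (0.84), Ankrd1 (0.52) and the kinase Lats1 (0.51), with a median of 0.31. No gene of the 5 lists was lower. These counts depend on the scaling. With median-of-ratios scaling, where the median of all genes is 0.00, 5 of the 7 fibrillar matrix genes, 2 of the 9 relatives, 3 of the 13 receptors, 3 of the 15 TGF-beta genes (Ltbp2, Tgfb3 and Ltbp3) and 1 of the 13 YAP/TEAD genes (Axl) were called, where 1.67% of all genes were, and the list medians were 0.73, 0.60, 0.084, 0.27 and 0.083. Of the 57 genes tested in these lists, 5 had a larger gradient in MI than in sham, where 0.683% of all genes were called, Ltbp2 (3.32 ± 0.42), Itgav (1.08), Thbs3 (0.95), Ltbp3 (0.80) and Col5a1 (0.70). Ltbp2 alone stayed called with median-of-ratios scaling.

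In FB-dominant spots 5 of the 57 list genes tested were higher in MI, where 0.596% of all genes were called, led by Spp1 (5.09 ± 0.92, log2, SE; adjusted p = 0.0375), which encodes osteopontin, a matricellular protein much produced by macrophages. The others were Ltbp2 (2.87), Itgb5 (1.40), Ltbp3 (1.27) and Lrp1 (1.00). In CM1-dominant spots Spp1 alone of the lists was called (3.15 ± 0.57; adjusted p = 0.0378), and it was not called with median-of-ratios scaling. Over whole sections 0 of the list genes were called by limma between MI and sham or between days, with Spp1 at 4.66 (log2; adjusted p = 0.414) across days.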

How the data were processed

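The 10 genes were given by symbol, and the related lists, marker lists and tests were chosen with earlier results of these data known. The submitters' processing notes name Space Ranger and GRCm38 (mm10) for alignment, and the methods name Seurat and sctransform; Space Ranger's version is not given in the sources used here. The authors deposited 1 expression table and 1 table of spot metadata per section. As deposited, sham day 3 is a table of raw UMI counts of 32285 genes, with spot totals matching the raw totals listed beside them (100% of spots). In the remaining 4 tables the deposited values are corrected by sctransform, a score that is scaled towards one depth within a section and rounded, for 14466 to 15300 genes. Such values are not raw counts, so no count model was used, and spots of different depth are evened out within but not between sections. The deposited metadata gave raw UMI counts, 11 label-transfer scores per spot (a fraction from 0 to 1 that estimates make-up) and spot positions in image pixels, the other unit used.

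Each spot was scaled to CPM (counts per 1000000) over the 13711 genes unique in all 5 tables, which held 99.8% to 99.9% of the values. After seeing the data, spots outside the largest group of spots with links of up to 2 spacings (with a tolerance for measured positions, as for all distances) were left out as lying off the tissue (18 of 3364). Spots were averaged per section, so the section was the replicate. The log2(mean CPM + 1) values were fitted in R 4.3.3 by limma 3.58.1, with a trend of variance on level, after keeping genes that reached 1 CPM in 2 or more columns, and with two-sided p-values and Benjamini-Hochberg adjustment over all genes at 0.05. Differences on this scale understate those of low genes. Fits had 2 residual degrees of freedom, apart from day 7 alone (1) and the MI against sham gradient (3). The last was fitted as an interaction with section as a block, which gives the same estimate as the planned fit on differences per section; at day 7 the lone sham section is taken to have the spread of the MI pair. Classes had at least 10 spots. Edge spots have fewer neighbours than the grid allows. UMI limits are exact Poisson intervals for counting error. The fits were tested on simulated data with genes changed by known amounts. All 10 genes, every related gene that passed, and at most the 3 largest others per comparison could be named; likeness was named where the mean rho over sections was at least 0.3 among genes at 5 CPM or more. Total UMIs per section ran from 11396022 to 37492530. Scaling, distances and correlations were computed in Python 3.11.15 with pandas 2.3.3, numpy 2.4.6 and scipy 1.17.1. Gene positions are those of GENCODE vM21. Promoters were those of RefSeq on GRCm38.p6.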

Additional observations from a re-analysis of the deposited data

Results flagged for a closer look

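Listed here are genes whose gradient differed between MI and sham by a test, and genes for which every MI section lay on one side of its sham section at day 3 and on the other at day 7. For Thbs4 the difference between bordering and remote spots was larger in MI than in sham sections by 2.86 (log2), by the interaction test of limma. Its level was higher in bordering than in remote spots of all 3 MI sections. It was lower in both sham sections, where its levels were low and did not change steadily with distance. For Postn the same difference was 0.74, with an upward gradient in all 5 sections and a larger one in MI.

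For Thbs1 the MI section was above sham at day 3 (0.38, log2) and both MI sections were below sham at day 7 (-0.88 and -0.39), a change of -1.02 between days. For Ccn1 the values were 0.14 at day 3 and -0.74 and -0.14 at day 7, a change of -0.58. These changes between days were not tested. Larger changes between days without such a change of direction in every section were 1.96 for Ccn3, -1.39 for Ccn2 and -1.36 for Tnc, also not tested.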

How the results depend on the processing

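With CPM scaling and all sections, 0 of the 10 genes were called by limma across days, between days, at day 7 and in CM1-dominant spots, 2 in FB-dominant spots, 9 between bordering and remote spots and 2 for the gradient of MI against sham. Leaving out 1 section at a time gave 0 to 3 calls across days, 0 to 4 between days, 0 to 2 in CM1-dominant spots, 0 to 9 in FB-dominant spots, 5 to 9 between bordering and remote spots and 1 to 3 for the gradient of MI against sham. Over all genes the shares called in the same fits ran from 0 to 2.23%, 0.0859% to 4.55%, 0.507% to 1.91%, 0 to 5.32%, 1.44% to 15.6% and 0.0303% to 2.89%, in that order. Summing spots gave 2 calls at day 7 (Ccn5 and Thbs4; 0.557% of all genes) and 1 in CM1-dominant spots (Ccn3; 0.422%). Median-of-ratios scaling and leaving out mitochondrial and haemoglobin genes each gave 1 call for the gradient of MI against sham (Thbs4; 0.249% and 0.193% of all genes). A wider bordering zone (up to 2 spacings), or CM4 spots taken by a score of at least 0.5, each gave 3 calls there (Postn, Sparc and Thbs4), as did leaving out MI day 3, where the share over all genes rose from 0.683% to 1.19%, 1.54% and 2.89%. The cause was not tested.

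With sections left out, the log2 difference across days ran from -0.64 to 0.38 for Thbs1, -0.44 to 0.14 for Ccn1 and -0.37 to 1.02 for Ccn2. Between days it ran from -0.17 to 0.25 for Sparc, -0.64 to 0.0015 for Thbs2, -0.0355 to 1.92 for Ccn3 and -0.30 to 0.53 for Ccn5. In CM1-dominant spots it ran from -0.0562 to 0.20 for Postn, -0.34 to 1.16 for Tnc and -0.30 to 0.52 for Ccn2, and in FB-dominant spots from -0.49 to 1.35 for Thbs1 and -0.0772 to 1.51 for Ccn2. For Ccn3, bordering against remote spots ran from -0.16 to 0.15 and the gradient of MI against sham from -0.20 to 0.20. Ccn3 was at -0.17 and -0.22 in these comparisons with median-of-ratios scaling, at -0.0702 and -0.20 without mitochondrial and haemoglobin genes, and at -0.0491 and -0.24 with CM4 spots taken by a score of at least 0.5.

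Using all deposited spots, or spots with at least 1000 UMIs, were alternatives chosen after seeing the data. No paired analysis was possible because the MI and sham groups share fewer than 2 replicate numbers. This concerns MI against sham, since bordering and remote spots were compared within sections. With 5 sections and 1 to 3 residual degrees of freedom, most comparisons between MI and sham could not settle small differences, and a gene that missed the threshold is not shown to be alike in both groups. Ccn5 rests on few UMIs in the sham sections.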
